A study of Mus musculus with 8 samples.

Results

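Kidneys of diabetic db/db mice given nanoparticles with a miR-181b-5p mimic were compared with kidneys of db/db mice given the same kind of particles with a control miRNA. The comparison rests on 4 of the 8 arrays in the series, 2 mimic and 2 control, chosen by the treatment named in the labels, and it was made over all 22368 genes that could be tested. Each array held RNA from 1 kidney sample of a male mouse 20 weeks old. The treated samples, and the 2 untreated db/db samples whose levels are given beside them, came from C57BLKS/J Iar mice with the Leprdb allele on both chromosomes. A further pair of arrays came from normal m+/m+ mice of the same background and age. The control group received control-miRNA-PEI-NPs and the other group miRNA-181b-5p-mimic-PEI-NPs, so the particle is common to both. The labels do not say that each array is a separate animal, so p-values measure only the spread between these samples. The sources used here do not state the dose, the route, the schedule or the hour at which kidneys were taken.

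The Leprdb allele disrupts the long signalling form of the leptin receptor, and db/db mice on the BLKS background become obese and strongly diabetic, with enlarged glomeruli and albumin in the urine. A microRNA mimic is a short synthetic duplex whose guide strand is loaded into Argonaute and directs it to mRNAs that pair with its seed, which lowers their translation and often their level. Nanoparticles of polyethylenimine, a cationic polymer, bind nucleic acids and carry them into cells.

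The seed is what a mimic would impose on the transcriptome, so the mature sequences of the family are given here, from RefSeq on the GRCm38.p6 build, with the seed (bases 2 to 8) in capitals. For the mimic itself, strand and chemistry are not stated in the labels.
miR-181b-5p: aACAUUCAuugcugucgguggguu
miR-181a-5p: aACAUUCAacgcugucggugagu
miR-181c-5p: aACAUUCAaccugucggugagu
miR-181d-5p: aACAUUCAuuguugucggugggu
All 4 carry the seed ACAUUCA, so an mRNA with a seed match for one has it for all. Read position by position from the 5′ end, miR-181d-5p differs from miR-181b-5p at 1 of 23 bases and miR-181a-5p at 3 of 23, while miR-181c-5p is shorter and its bases do not line up in that way. In the mouse, miR-181b-5p is made from 2 genes, Mir181b-1 (chr1:137966650-137966673, plus strand) and Mir181b-2 (chr2:38853845-38853868, plus strand). The array does not measure mature miRNAs, so the amount of miR-181b-5p that reached the kidney was not checked here.

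Levels are log2 intensities relative to the 75th percentile of their array, so a level of 0 is that percentile and 1 unit is a 2-fold step. Kidney identity was clear: all 20 proximal tubule markers and all 13 podocyte markers lay well above background on all 4 arrays. Mimic replicate 1 stood apart. Over the 22368 genes it correlated with mimic replicate 2 at r = 0.976, against r = 0.995 between the control arrays, as a description across genes. Between the mimic arrays 1942 genes lay 2-fold or more apart, against 234 between the control arrays and 69 between the untreated arrays. The number of genes 2-fold or more from control was 2131 and 2128 for mimic replicate 1 (against control 1 and control 2) and 467 and 476 for mimic replicate 2. All arrays lay on 1 slide. The control arrays occupied columns 1 and 2 of array row 2 and the mimic arrays columns 3 and 4, so column and treatment cannot be told apart. The untreated arrays lay in columns 3 and 4 of the other row.

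No gene passed the test of mimic against control. The limma fit with Benjamini-Hochberg adjustment called 0 of 22368 genes (0.0%) at an adjusted p under 0.05, and its smallest adjusted p was 0.140. Without adjustment, 2082 genes (9.31%) had a p under 0.05, with 764 higher after the mimic (3.42%) and 1318 lower (5.89%). With normexp background correction that split was 980 higher and 896 lower, so the balance of directions depends on the background correction. With 2 arrays on each side, the smallest two-sided p of an exact permutation test is 0.333, so each p leans on the spread of all 8 arrays. On data simulated from these arrays, the same fit called 37 of 100 genes changed by 1 log2 unit and 86 of 100 changed by 2 units, with 7 false calls. The simulation gave all 8 arrays the same spread for a gene. The real mimic arrays lay further apart (1942 genes 2-fold or more) than the control arrays (234) or the untreated arrays (69), so these rates do not carry over to this comparison. The count of 0 held only with both mimic arrays kept, when the spread between them enters the fit. Without mimic replicate 1 there were 113 calls (0.505%; 75 or 0.335% higher and 38 or 0.17% lower), and without mimic replicate 2 there were 3087 (13.8%; 1289 or 5.76% higher and 1798 or 8.04% lower), the lone array being assumed to vary like the other groups. Without either control array the count stayed at 0.

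The 8 genes with the smallest p on the higher side included Pramel25, Mt2, Bdkrb2, Ccdc138, Mms22l, Zcchc9 and Pip5k1a, all at an adjusted p of 0.140 in limma. Mt2, a metallothionein that binds zinc and copper, had log2 levels of 5.70 and 5.68 in the control kidneys and 6.87 and 6.63 in the mimic kidneys, a 2.08-fold difference (log2 1.05, SE 0.13). Bdkrb2, the bradykinin B2 receptor, had levels of -3.40 and -3.75 in controls and -2.44 and -2.42 after the mimic, a 2.20-fold difference. The pick by small p largely fixed that neither gene overlapped between groups, and 39.6% of all genes did not overlap. Mt2 was also above the untreated levels of 5.40 and 5.34. Pip5k1a, which makes the membrane lipid PIP2, had levels of 3.29 on both control arrays against 4.30 and 4.12. Pramel25, of the PRAME-like family, was at -2.08 and -2.17 against -0.94 and -1.15. Ccdc138, Mms22l and Zcchc9 belong to a set of repeat-bearing probes that is described below with the shared genes.

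On the lower side the 8 were Alox5, Tmem269, Tceanc2, Gm3230, Gli3, Rhox4a, Slc4a5 and Gm40798, also at an adjusted p of 0.140 in limma. Only Alox5 was measured on all 4 arrays. For the other 7 no mimic array lay well above background, so their fitted differences are not measurements. The bounds that can be given are at least 1.78-fold lower for Rhox4a, 1.52-fold for Tmem269, 1.37-fold for Slc4a5, 1.19-fold for Gli3 and Tceanc2 and 1.02-fold for Gm40798, and Gm3230 was not well above background on any of the 4 arrays. Alox5 encodes 5-lipoxygenase, the enzyme that starts leukotriene synthesis, and is a leukocyte gene in most tissues. Its probe (chr6:116360326-116360385, mm9) read -2.73 and -2.84 in the control kidneys and -4.28 and -4.42 in the mimic kidneys. That is 2.96-fold lower (log2 -1.56, SE 0.12), with no overlap, which the pick by small p largely fixed. Untreated db/db kidneys lay at -2.41 and -2.51. On both normal arrays the probe lay below the lowest well-above-background signal (-5.04 and -4.87), so its level there was not measured. The mimic arrays lay between the untreated levels and those limits.

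The groups did not overlap for 8855 genes (39.6%): both mimic arrays lay above both control arrays for 4010 genes (17.9%) and below them for 4845 (21.7%). A difference was counted as shared when both mimic arrays lay 2-fold or more beyond both control arrays, after values not well above background had been raised to the array's lowest well-above-background signal. By that rule 115 genes were shared higher (0.514%) and 41 shared lower (0.183%). All 115 and 39 of the 41 also lay beyond both untreated arrays. Differences were larger on mimic replicate 1: the median gap to the nearest control array was 2.25 log2 units there and 1.33 on mimic replicate 2 for shared higher genes, and -2.15 and -1.17 for shared lower genes. These are descriptions, since the choice fixed the direction. Without mimic replicate 1 the rule held for 140 genes higher (0.626%) and 103 lower (0.46%), and without mimic replicate 2 for 895 (4.0%) and 718 (3.21%). Without control replicate 1 it held for 162 and 95, and without control replicate 2 for 133 and 103.

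Most shared differences were carried by probes with a dinucleotide repeat, a pattern that was noticed after the values were seen. A run of alternating G and T of 8 or more bases was present in the probe of 99 of the 115 shared higher genes (86.1%), although only 247 of all genes (1.1%) had such a probe. A run of alternating C and A of that length was present in 24 of the 41 shared lower genes (58.5%), against 143 genes in all (0.639%). Probe windows of 30 bases are shown to make the contrast visible, 3 from shared higher and 3 from shared lower genes, read 5′ to 3′ as the array file lists the probe, with the repeat in capitals.
Phip: gttataatcattTGTGTGTGTGTGTGTGgg
Dmtn: ccaatatgtgtgGTGTGTGTGTGTGTtggg
Psme3: cacacgtgcacaTGTGTGTGTGTGTtcgtg
Lrig2: CACACACACACACACAtgtaattctaaatc
Clasp2: ACACACACACACACACACtttgacccagta
Slc17a5: ctgaaatggACACACACACACACACACACA
The probes lie, on mm9, at chr9:82788253-82788312 (Phip), chr14:71001871-71001930 (Dmtn), chr11:101184289-101184348 (Psme3), chr3:104285266-104285325 (Lrig2), chr9:113764788-113764847 (Clasp2) and chr9:78385399-78385458 (Slc17a5). Which exon or intron they lie in was not determined here.

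Phip, which binds the insulin receptor substrate, had log2 levels of 1.86 and 1.69 in the control kidneys and 4.70 and 3.40 in the mimic kidneys. Dmtn, an actin-bundling protein of the red cell skeleton, had 2.36 and 2.31 against 5.21 and 3.95. Lrig2, a membrane protein with leucine-rich repeats, had 1.35 and 1.24 against -1.45 and -0.16, and Clasp2, which stabilises microtubule ends, 3.73 and 3.74 against 1.5 and 2.47. The choice fixed that the mimic arrays lay apart from the controls, and in each of these mimic replicate 1 lay further than mimic replicate 2. The same order held for the other named genes of this kind. Atxn7, Igsf9, Psme3, 1700110I01Rik and A530006G24Rik were 4.41-fold, 4.48-fold, 4.64-fold, 4.58-fold and 4.63-fold higher in the group means. Slc17a5, Fgf23, Itgam and Mcidas were 3.41-fold, 3.64-fold, 3.45-fold and 3.62-fold lower. Their adjusted p ranged from 0.140 to 0.186 in limma.

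**Figure D1:**
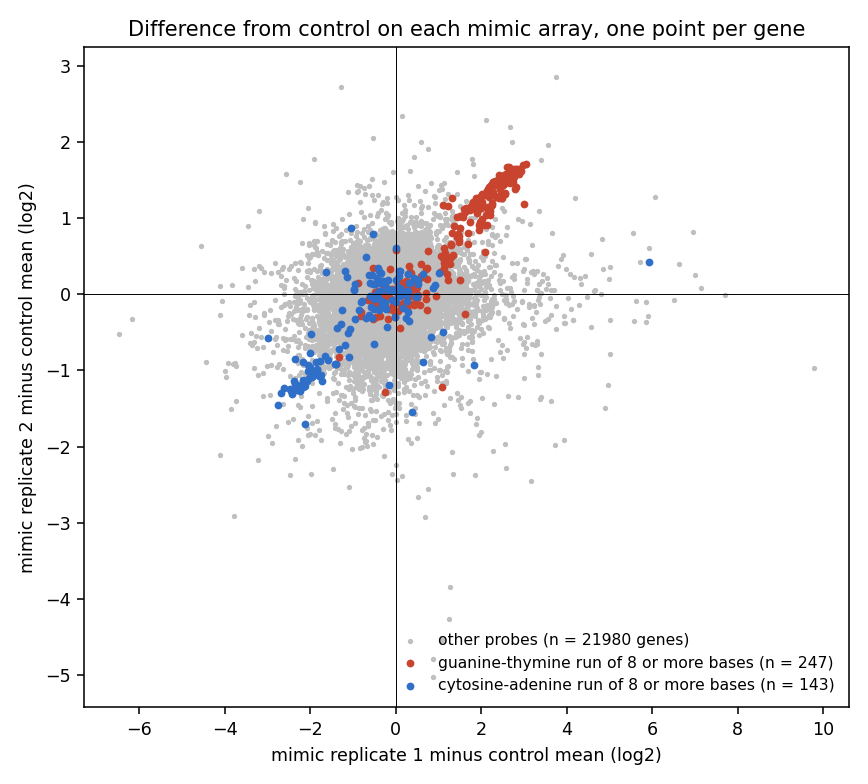
Each point is a gene, placed by its log2 level on mimic replicate 1 (horizontal axis) and mimic replicate 2 (vertical axis) minus the mean of the 2 control arrays. Red points are the 247 genes whose probe holds a guanine-thymine run and blue points the 143 with a cytosine-adenine run of 8 or more bases; the red points reach the upper right and the blue points the lower left, while most other genes far from 0 lie along the horizontal axis.

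Differences were larger for longer runs, up to the bin of 16 to 19 bases for G and T. For C and A the largest bin median was at 16 to 19 bases on mimic replicate 1 and at 20 to 29 bases on mimic replicate 2. For G and T runs of 8 to 9 bases (105 genes) the median difference from the control mean was 0.17 on mimic replicate 1 and 0.05 on mimic replicate 2. It was 1.28 and 0.50 for runs of 10 to 11 bases (35 genes) and 2.43 and 1.29 for 12 to 15 bases (38 genes). At 16 to 19 bases (21 genes) it was 2.48 and 1.51, and at 30 or more (21 genes) 2.03 and 1.31. All 107 genes with a G and T run of 12 or more bases lay above both control arrays on both mimic arrays, and 89 of them (83.2%) were shared higher. For C and A runs the medians were -0.22 and 0.01 at 8 to 9 bases (76 genes), -1.11 and -0.50 at 12 to 15 bases (11 genes), -2.42 and -0.99 at 16 to 19 bases (7 genes) and -2.17 and -1.13 at 20 to 29 bases (22 genes). Of the 47 genes with a C and A run of 12 or more bases, 44 lay below the controls on both mimic arrays and 23 (48.9%) were shared lower. Genes with no run of 8 bases of any of the 5 dinucleotides examined (21708 genes) had medians of -0.08 and -0.004. Runs of G and A, C and T, or A and T of 12 or more bases had bin medians between -0.41 and 0.18, so the pattern was one of G and T against C and A.

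The other 4 arrays differed from control on the same probes. For G and T runs of 12 or more bases, untreated db/db kidneys lay at 0.18 and 0.04 (medians over genes), control replicate 1 lay 0.15 above control replicate 2, and normal kidneys lay below control, at -0.92 and -0.78. For C and A runs the normal kidneys lay above control, at 1.03 and 0.90.

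**Figure D2:**
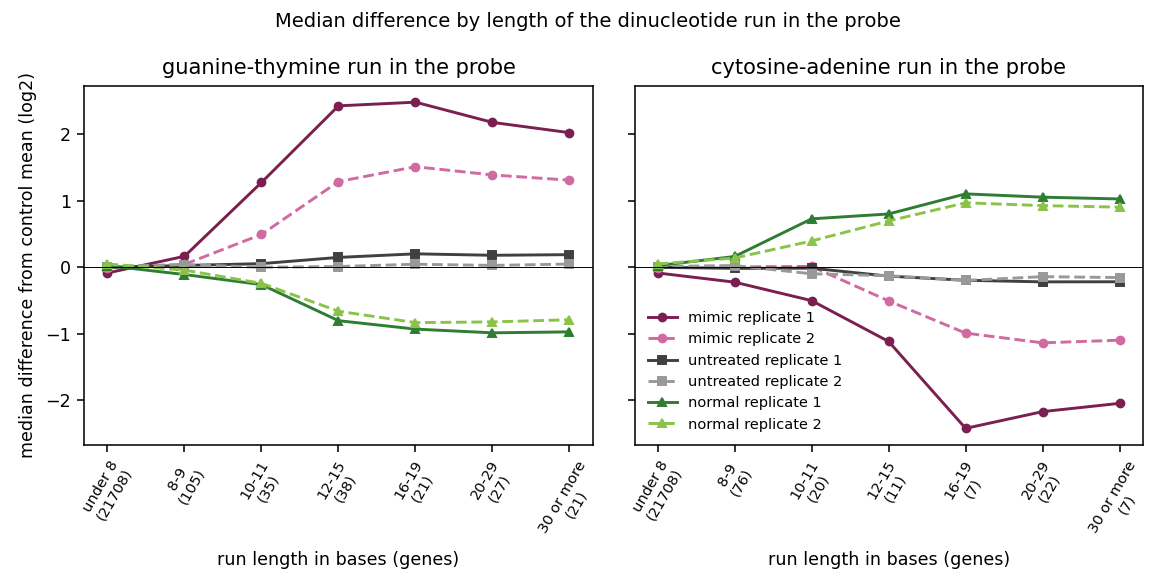
Median log2 difference from the control mean (vertical axis) against the length of the longest guanine-thymine (left) or cytosine-adenine (right) run in the probe, with the number of genes in each bin. The mimic arrays reach 2.48 and 1.51 at guanine-thymine runs of 16 to 19 bases, the untreated arrays stay near 0 and the normal arrays lie on the opposite side.

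Probes of the same genes without a repeat, where they could be measured, did not show these differences. Of the 99 shared higher genes on repeat probes, 43 had another probe without a run of 8 bases, and for 37 of them it was well above background on all 4 arrays. In those 37 the median mimic minus control difference was 1.91 on the repeat probe and 0.05 on the other probe (range -0.71 to 0.48), and 0 reached 2-fold. Of the 24 shared lower genes, 12 had such a probe, 7 of them well above background on all 4 arrays, with medians of -1.66 and 0.04 (range of the other probe -0.05 to 0.29). The remaining other probes were dim on at least 1 array and are not read here. All 6 genes named next had a measured other probe. Phip had 2.27 on the repeat probe and 0.13 on the other, Dmtn 2.24 and 0.05, and Psme3, an activator of the proteasome, 2.21 and 0.18. On the lower side, Lrig2 had -2.10 and 0.29, Clasp2 -1.75 and 0.20, and Slc17a5, the lysosomal sialic acid exporter, -1.77 and 0.02. What the repeat probes captured was not tested.

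When genes were rebuilt without probes holding such a run (22119 genes), 16 genes were shared higher and 17 shared lower, of which 13 and 15 had a symbol in RefSeq. All 16 of the higher and 15 of the lower genes had an unadjusted p under 0.05 in limma, against 3.42% and 5.89% of all genes. The choice by the same values largely fixed this, so it is no support for them. Clock genes made up 7 of the shared genes on probes without a repeat. Those among the named genes that are not in the lists of largest gaps or smallest p (Nfil3, Creb3l3, Slc25a25, Nr1d1, Ciart, Alox5 and Slco1a1 are) were chosen after their values were seen.

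The clock is a feedback loop in which BMAL1 and CLOCK drive the genes of their own repressors, PER, CRY, CIART and the REV-ERB receptors, while ROR receptors and REV-ERBs compete to set Bmal1 itself. Of the 20 clock genes measured, 7 were shared, 4 higher (0.514% of all genes) and 3 lower (0.183% of all genes). Arntl, the gene of BMAL1, had log2 levels of -3.01 and -2.58 in the control kidneys and -0.30 and -1.55 in the mimic kidneys (adjusted p = 0.443 in limma). Its 2 other probes differed by 1.69 and 2.36. On both, control replicate 1 (-5.57 and -5.27) lay below that array's lowest well-above-background signal (-5.11), so these 2 differences are not measurements. Nfil3 encodes the repressor at D-box elements. Its levels were -1.0 and -0.20 in control and 3.16 and 2.26 after the mimic, 9.89-fold higher (log2 3.31, SE 0.65, adjusted p = 0.183 in limma), and a further probe differed by 3.16. Cry1, which blocks BMAL1 and CLOCK, had -4.29 and -4.36 against -2.89 and -2.72.

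The shared lower clock genes were Nr1d1, Dbp and Ciart. Nr1d1, the gene of REV-ERBα, had levels of -0.09 and -0.17 against -2.61 and -2.51, 5.38-fold lower (log2 -2.43, SE 0.50, adjusted p = 0.212 in limma). Dbp, the D-box activator, was at 5.71 and 5.27 against 1.76 and 4.09 (SE 1.25, adjusted p = 0.591 in limma). Ciart, a repressor of BMAL1 and CLOCK, had -1.78 and -1.94 against -5.96 and -3.97 (adjusted p = 0.581 in limma), with mimic replicate 1 not well above background. Dbp and Ciart were the shared lower genes on probes without a repeat whose unadjusted p was not under 0.05 in limma (0.083 and 0.073). The choice of shared genes fixed the separation of mimic from control in these genes. Untreated kidneys, not used in that choice, lay on the control side (Arntl -2.76 and -2.90, Nfil3 -0.47 and -0.36, Nr1d1 -0.62 and 0.54, Dbp 5.23 and 5.36, Ciart -0.81 and -0.64). Among the other clock genes, Per1 was higher at 3.26 and 3.05 against 2.67 and 2.60, and Nr1d2, the gene of REV-ERBβ, lower at 0.65 and 1.59 against 2.13 and 1.96. Untreated levels of Per1 (3.14 and 3.13) lay within the mimic range, while those of Nr1d2 (2.13 and 2.11) lay on the control side. Over the list, 5 genes were higher and 2 lower at an unadjusted p under 0.05 in limma, against 3.42% and 5.89% of all genes. Without overlap, 9 lay above and 6 below control, against 17.9% and 21.7% of all genes.

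The normal arrays show how far these genes differ between kidneys of 1 group. Normal replicate 1 minus normal replicate 2 was 1.90 for Nfil3, 1.70 for Arntl, 0.78 for Cry1, -1.28 for Nr1d1 and -3.68 for Dbp. Each of these has the sign of mimic minus control, and the difference of Dbp is larger between the normal kidneys than between the treated groups (-2.57). Ciart lay below the lowest well-above-background signal on normal replicate 1 and at -2.31 on normal replicate 2. The hour of collection is not given for any kidney, and its part in the clock differences was not tested.

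Promoter windows were searched for the elements through which these factors act, because 7 of the shared genes belong to this loop. The windows cover 250 bases before to 50 after each RefSeq start on GRCm38.p6, and both strands were read for the E-box CACGTG (BMAL1 and CLOCK), the RORE core AGGTCA (ROR and REV-ERB) and the D-box TTATGTAA. Of 32851 windows, 7.15% held the E-box, 16.3% the RORE core and 0.938% the D-box. Windows of 30 bases around 1 match each in Ciart, Cry1 and Nfil3 are given in the direction of the gene, with the element in capitals.
Ciart, E-box: cgcagggggaggCACGTGcagaaccgcacg
Cry1, E-box: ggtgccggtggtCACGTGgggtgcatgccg
Nfil3, RORE on the opposite strand: tagcgcggcgctcggaacTGACCTactaac
They lie at chr3:95882269-95882298, chr10:85185097-85185126 and chr13:52981040-52981069, all on the minus strand. Ciart held 3 E-boxes in its window. Arntl held the RORE core in 1 of its windows. The windows of Nr1d1 and Dbp held none of these letters.

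Outside the clock, the shared higher genes on probes without a repeat included 1 of the glucose handling list (Pck1) and 1 of the glucocorticoid list (Tsc22d3). Pck1, the cytosolic enzyme that controls gluconeogenesis in proximal tubule and liver, had log2 levels of 7.03 and 7.01 in the control kidneys and 8.36 and 8.06 in the mimic kidneys, 2.28-fold higher (log2 1.19, SE 0.26, adjusted p = 0.233 in limma). Creb3l3, a membrane-bound transcription factor of lipid metabolism, had -3.98 and -3.57 against -1.09 and -1.58. Slc25a25, a mitochondrial carrier of ATP-Mg and phosphate, had 1.52 and 1.29 against 4.96 and 3.37, and all 4 of its probes differed by 2.44 to 2.76. That none of the 3 overlapped was fixed by the choice, while the untreated arrays, not used in it, stayed on the control side (Pck1 7.17 and 6.99). Tsc22d3, the glucocorticoid-induced leucine zipper, had 2.58 and 2.55 against 3.88 and 3.59, 2.26-fold higher, and 1.04 on its other probe. In Rab30, a small GTPase of the Golgi, the levels were -2.72 and -3.01 against -1.69 and -1.72. Car5b, the mitochondrial carbonic anhydrase, was not well above background in either control kidney and at least 2.80-fold higher after the mimic. Kcna5, a potassium channel, had -5.30 and -4.85 against -3.63 and -3.75, with 1 control array well above background.

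The shared lower genes outside the clock have no list in common. Cyp24a1, which breaks down active vitamin D, had 3.61 and 2.32 in the control kidneys and 0.16 and 1.23 in the mimic kidneys, 4.82-fold lower (log2 -2.27, SE 0.51, adjusted p = 0.25 in limma). Untreated kidneys were higher still, at 4.74 and 4.23. Slco1a1, an androgen-dependent organic anion transporter of the proximal tubule, had -3.67 and -3.68 in control and was not well above background in either mimic kidney, at least 2.51-fold lower. Normal kidneys held it at 2.15 and 3.01. Ldc1, the leucine decarboxylase, had 0.15 and 0.57 against -2.74 and -0.97. Both lower genes were thus already far below normal in db/db control kidneys, since Ldc1 lay at 4.14 and 4.32 in normal kidney. Prelp, a matrix proteoglycan, had 1.63 and 1.25 against 0.12 and 0.06, 2.56-fold lower. C1qtnf2, Kcnip3, Clstn2 and Rgs9 were 2.80-fold, 2.56-fold, 2.12-fold and 2.60-fold lower. Xkrx and Msln, the mesothelin gene, were each well above background on only 1 mimic array, at -4.68 against -3.36 and -3.68 for Xkrx and at -4.66 against -2.99 and -3.47 for Msln. Untreated arrays (-4.81 and -4.65) lay at the mimic level of Msln.

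**Figure D3:**
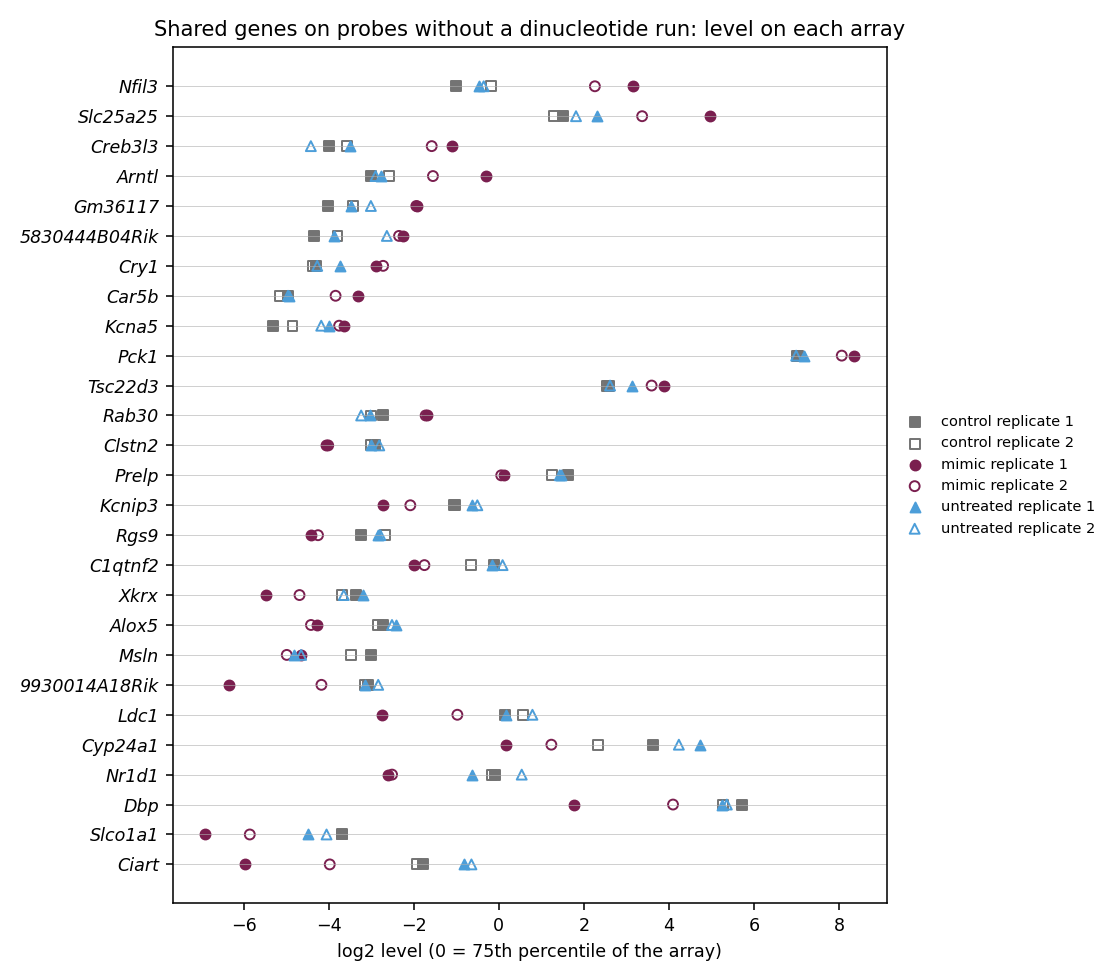
Log2 level on each array (horizontal axis, 0 is the 75th percentile) of RefSeq-named genes that are shared on probes without a repeat, with squares for control, circles for mimic and triangles for untreated db/db arrays. Circles stand right of the squares from Nfil3 to Rab30 and left of them from Clstn2 to Ciart, and for Msln the triangles lie among the circles.

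Gene lists describe the same arrays by function. They were chosen with earlier results known and are given by counts and medians beside those of all genes, whose median difference was -0.04 (-0.08 on mimic replicate 1 and -0.003 on mimic replicate 2). The glucocorticoid list stood higher on both arrays, with medians of 1.15 and 0.49 over 16 genes. Of these, 8 were higher and 0 lower at an unadjusted p under 0.05 in limma, against 3.42% of all genes, and 12 lay above control without overlap, against 17.9%. Fkbp5, a cochaperone of the glucocorticoid receptor, had 2.10 and 2.09 in the control kidneys and 4.42 and 3.09 after the mimic. In Pdk4, which shuts pyruvate out of oxidation, the levels were -0.69 and -0.14 against 3.77 and 0.85. Zbtb16 had -1.50 and -1.38 against 2.20 and -0.63, but the untreated arrays reached 0.79 and 0.09. Sgk1, a kinase that raises sodium uptake, had 4.16 and 4.35 against 5.14 and 5.55, and untreated replicate 1 lay at 5.24, within the mimic range. Mt1, the other main metallothionein, had 6.91 and 7.12 against 7.66 and 7.70. Cebpd and Lcn2, also on this list, were high on mimic replicate 1 alone.

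Heat shock genes stood higher by smaller amounts, with medians of 0.64 and 0.27 over 15 genes. Of these, 5 were higher at an unadjusted p under 0.05 in limma, against 3.42% of all genes, and 13 lay above control without overlap, against 17.9%. Hsph1, a chaperone of the HSP110 family, had 2.27 and 2.41 against 3.36 and 2.92, and Chordc1, an HSP90 cochaperone, 0.95 and 0.95 against 1.81 and 1.36. Immediate early genes had medians of 0.85 and 0.11 over 16 genes, with 4 higher at that p, against the same 3.42%. Among them Myc had -2.25 and -2.02 against -0.88 and -1.45, and Atf3 -4.09 and -3.68 against -2.27 and -3.23. Junb, 2.55 and 2.64 against 4.68 and 3.15, was read by a repeat probe. Stress genes of the endoplasmic reticulum had medians of 0.68 and 0.03, with Creld2 at 3.46 and 3.84 against 5.69 and 4.22.

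Fatty acid oxidation genes had medians of 0.39 and 0.22 over 25 genes, with 7 higher and 0 lower at an unadjusted p under 0.05 in limma, against 3.42% and 5.89% of all genes. Angptl4, a fasting-induced inhibitor of lipoprotein lipase, had 2.69 and 2.90 against 6.16 and 3.89. Slc25a20, the carnitine carrier of mitochondria, had -0.52 and -0.13 against 0.69 and 0.31, and Acot1, a thioesterase under PPARα, 4.31 and 4.36 against 5.38 and 4.91. In all 3, picked by their values, the mimic arrays lay above the control arrays. In the lipid synthesis list (16 genes, medians -0.28 and -0.02), 4 genes were lower and 0 higher at that p, against the same shares. Insig1, which holds back the sterol-regulated factors, had -1.45 and -1.52 against -3.08 and -2.16, and Idi1, an enzyme of isoprenoid synthesis, 2.25 and 1.83 against 0.89 and 1.38. Both were picked by their values, and neither overlapped between groups.

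Androgen-dependent kidney genes had medians of -0.73 and -0.11 over 14 genes, with 4 lower and 0 higher at an unadjusted p under 0.05 in limma, against 5.89% and 3.42% of all genes. Without overlap, 4 lay below and 2 above control, against 21.7% and 17.9%. Beside Slco1a1, these included Cyp7b1, an oxysterol hydroxylase, at 1.30 and 1.48 against 0.58 and 0.25, and Ugt2b38 at 5.77 and 5.64 against 5.07 and 4.71. Kap, the kidney androgen-regulated protein, had 8.48 and 7.95 against 6.63 and 7.85. Agtr1a, the angiotensin receptor, was lower at 2.94 and 3.03 against 2.06 and 2.37, while renin (Ren1) had 1.91 and 1.51 against 3.02 and 1.87. The proliferation list (24 genes) had medians of -0.29 on mimic replicate 1 and 0.13 on mimic replicate 2. Of its genes, 3 were lower and 0 higher at an unadjusted p under 0.05 in limma, against 5.89% and 3.42% of all genes. Without overlap, 8 lay below and 1 above control, against 21.7% and 17.9%. Among cell cycle genes picked by their values, the cyclin gene Ccnd1 had 5.19 and 5.18 against 3.15 and 4.60, and Mcm3 0.09 and 0.57 against -0.36 and -0.38. Neither overlapped between groups. Mki67, the proliferation marker, had -1.58 and -2.11 against -1.58 and -1.07.

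**Figure D4:**
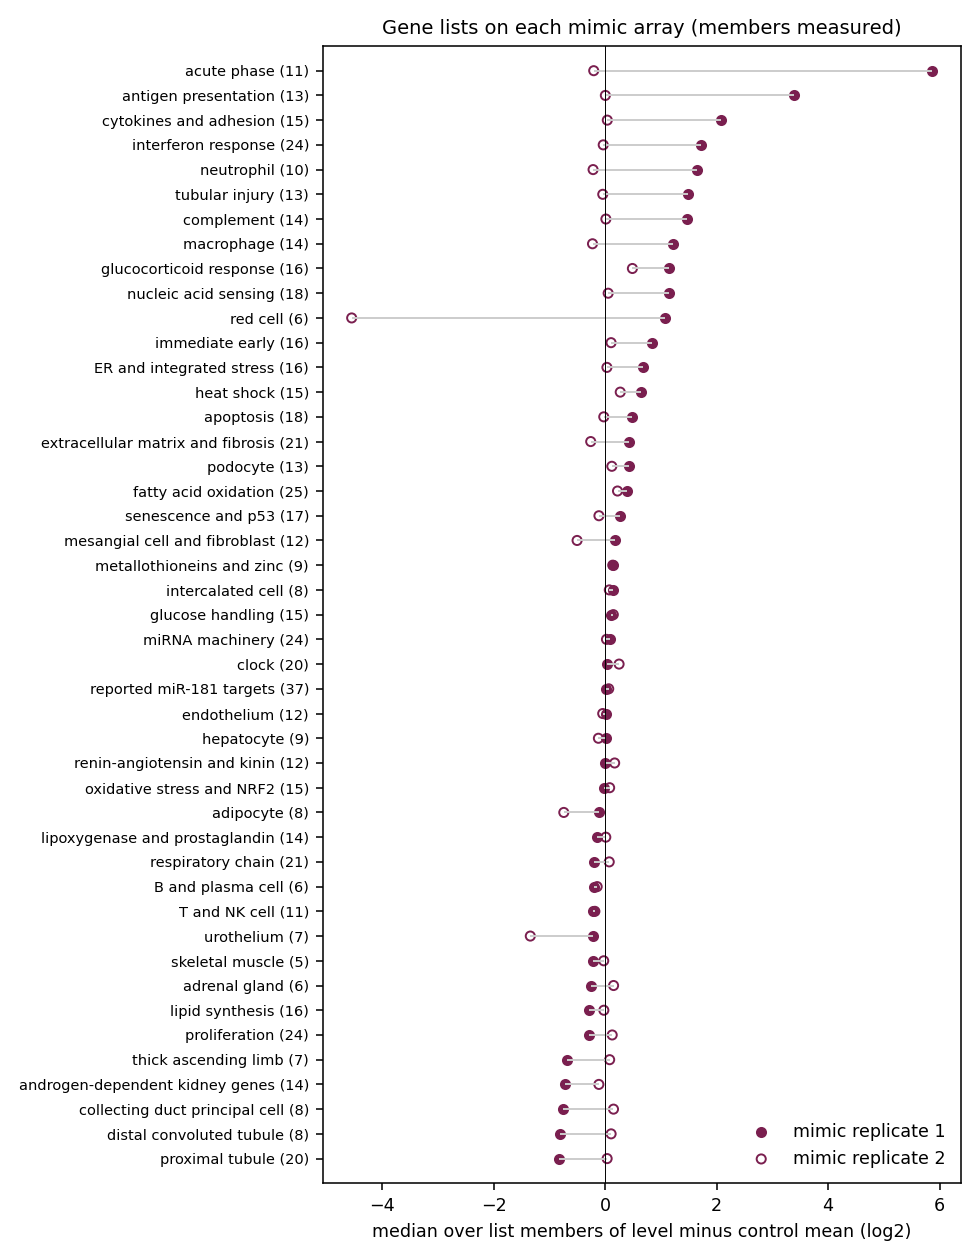
Median over the measured members (number in brackets) of each gene list of the log2 level minus the control mean, for mimic replicate 1 (filled) and mimic replicate 2 (open). Acute phase genes lie at 5.86 and -0.20, antigen presentation genes at 3.39 and 0.01, red cell genes at 1.08 and -4.54, and the glucocorticoid list at 1.15 and 0.49.

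Differences on 1 mimic array only were far more numerous than shared ones. A gene was counted here when 1 mimic array lay 2-fold or more beyond both control arrays while the other lay within 0.5 log2 units of the control range. On mimic replicate 1 there were 652 such genes higher (2.91%) and 566 lower (2.53%). On mimic replicate 2 there were 17 higher (0.076%) and 34 lower (0.152%). With the roles of the groups exchanged, the counts were 30 higher (0.134%) and 4 lower (0.0179%) for control replicate 1 and 26 (0.116%) and 18 (0.0805%) for control replicate 2. In opposite directions on the mimic arrays, 2-fold or more each, there were 8 genes high on replicate 1 and low on replicate 2 (0.0358%) and 2 the other way (0.00894%).

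Mimic replicate 1 carried an acute phase and interferon pattern that its partner lacked. Saa1, a serum amyloid A gene, had log2 levels of -2.30 and -2.34 in the control kidneys, 5.38 on mimic replicate 1 and -2.34 on mimic replicate 2. The fibrinogen chain Fgb had -2.29 and -2.45, then 4.77 and -2.28, and Fgg 2.07 and 2.36, then 8.12 and 1.93. On mimic replicate 1 the 3 genes stood 205-fold, 134-fold and 54.4-fold above the nearest control array, while mimic replicate 2 sat beside the controls. Of 11 acute phase genes, 9 lay 2-fold or more above control on mimic replicate 1 and 0 on mimic replicate 2, against 4.0% and 0.626% of all genes. Lcn2, the injury protein NGAL, had -1.14 and -0.77, then 4.91 and -1.32.

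Interferon genes gave the same picture: 19 of 24 were high on mimic replicate 1 only (652 of all genes, 2.91%). Gbp6 had -2.41 and -3.72 in control, then 3.94 and -2.82, and Iigp1, an immunity-related GTPase, 0.87 and -0.67, then 6.74 and 0.50. All 13 antigen presentation genes were high on mimic replicate 1 only, among them H2-Ab1 at 4.84 and 4.15, then 8.10 and 4.45, and Psmb9 at 0.35 and -0.52, then 4.57 and -0.03. Ubd, a ubiquitin-like gene induced by interferon-γ and TNF, had -1.59 and -4.11, then 4.10 and -2.02. Of 18 sensors of foreign RNA and DNA and their partners, 10 lay 2-fold or more above control on that array, against 4.0% of all genes. Tlr3 had -3.89 and -3.78, then -2.65 and -3.49, Ddx58, the gene of RIG-I, 1.81 and 1.51, then 2.98 and 1.73, and Zbp1 -2.29 and -2.84, then 0.60 and -2.27. Trim25, the only member of that list among the shared genes, was read by a repeat probe, and its other probe differed by 0.15.

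Markers of leukocytes and of tubular injury were high on the same array. Their part in the acute phase and interferon values was not tested. Macrophage markers were 2-fold or more higher on it in 7 of 14 genes, against 4.0% of all genes, such as Lyz2 at 2.61 and 2.43, then 4.96 and 1.76. The log2 of their summed linear levels, in which bright markers weigh most, was 4.75 and 4.62 in control, 5.68 on mimic replicate 1 and 4.09 on mimic replicate 2. Neutrophil markers were higher in 6 of 10, against the same 4.0%, with S100a8 at -2.80 and -2.76, then 2.80 and -3.14. The log2 of their summed linear levels was 4.99 and 5.05, then 5.99 and 4.86, while Mpo and Elane were not above control on either mimic array. By the same measure T and NK cell markers were at 2.25 and 1.93 in control, then 1.71 and 1.93. Of 13 injury genes, 8 were high on mimic replicate 1 only, against 2.91% of all genes. They include Spp1, the osteopontin gene, at 7.07 and 6.93, then 9.20 and 7.12, Timp1 at -2.62 and -3.32, then 0.32 and -2.91, and the keratin Krt20 at -1.25 and -3.28, then 1.84 and -2.46. No hepatocyte gene other than the 3 fibrinogen chains was high on mimic replicate 1 only: Alb had 0.53 and 0.31, then -1.07 and 1.13, and Serpina1a 6.59 and 6.89, then 6.83 and 6.62.

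The genes furthest below control on the same array included tubule genes. Inmt, a methyltransferase, had 6.61 and 6.51 in the control kidneys, 0.38 on mimic replicate 1 and 6.23 on mimic replicate 2. Adgrg4, an adhesion receptor, had -0.07 and -0.68, then a value not well above background and -0.90. The transporter Slc22a22 had 0.69 and 0.49, then -3.47 and 0.51, Slc22a27 -1.27 and -1.38, then -4.64 and -0.99, and Proz, protein Z of coagulation, 1.36 and 1.06, then -2.40 and 0.67. Pde6a had 0.43 and -0.05, then -3.93 and -0.07. Of 20 proximal tubule markers, 7 were low on mimic replicate 1 only (2.53% of all genes), and the list medians were -0.83 and 0.04. Gatm, which makes the creatine precursor, had 5.73 and 5.79, then 3.49 and 5.65, and Lrp2, the megalin gene, 6.60 and 6.63, then 5.58 and 6.47. Distal convoluted tubule, thick ascending limb and principal cell markers had medians of -0.80, -0.69 and -0.75 on mimic replicate 1 and 0.11, 0.08 and 0.15 on mimic replicate 2. Fewer cells of a type and less RNA per cell cannot be told apart in whole kidney.

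Globin genes had the largest gaps among genes low on mimic replicate 2 only, and red cell genes were 4 of those 34. Hbb-b1, a globin gene, had 1.42 and 0.62 in the control kidneys, 1.90 on mimic replicate 1 and -4.01 on mimic replicate 2. Hba-a1 had 6.90 and 5.70, then 7.38 and 1.75, and Alas2, the first enzyme of haem synthesis in red cells, -1.11 and -1.76, then -0.16 and a value not well above background. All 6 measured red cell genes were 2-fold or more below control on mimic replicate 2, against 0.46% of all genes. The log2 of their summed linear levels was 2.92 there, against 8.04 and 6.86 in control and 8.54 on mimic replicate 1. Hbb-b2 and Hba-a2, close copies whose probes may share signal, followed them at -2.97 and 1.70. Normal kidneys had globin levels near those of mimic replicate 2, with Hba-a1 at 2.23 and 3.25. Zdhhc22 and Gsdmc3 were the other named genes low on mimic replicate 2, at -4.46 against -1.51 and -2.28 and at -3.02 against -0.31 and -1.0. Those high on it were dim genes: the X-linked Xlr3b had -3.44 and -3.54, then -3.06 and -1.69, and Xlr4b -1.78 and -2.02, then -1.57 and -0.28. Prss50 was 2.48-fold above the nearest control array on it. Myt1l, not well above background in either control kidney, was at least 2.53-fold above them, and Aspm, with 1 control array well above background, had -4.97 and -5.04, then -4.95 and -3.77.

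**Figure D5:**
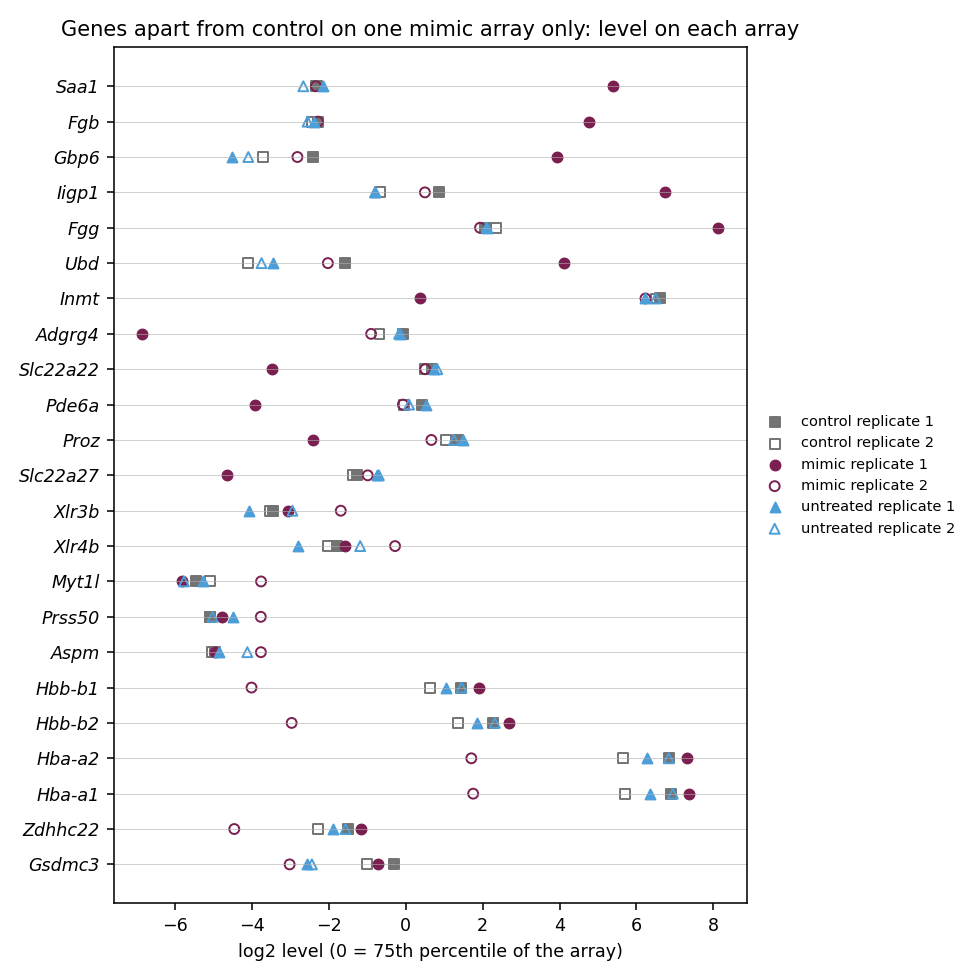
Log2 level on each array (horizontal axis, 0 is the 75th percentile) of the named genes that differ from control on 1 mimic array only, with squares for control, circles for mimic (filled for replicate 1) and triangles for untreated db/db. From Saa1 to Slc22a27 the filled circle stands alone, from 5.38 to -2.34 between the mimic arrays for Saa1, and from Xlr3b to Gsdmc3 the open circle is the outlying one among the treated arrays.

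Reported miR-181 targets did not stand lower after the mimic as a list. Of 37 measured, 3 were higher and 0 lower at an unadjusted p under 0.05 in limma, against 3.42% and 5.89% of all genes. Without overlap, 11 lay above and 6 below control, against 17.9% and 21.7%, and the list medians were 0.02 on mimic replicate 1 and 0.07 on mimic replicate 2, against -0.08 and -0.003 for all genes. Timp3, an inhibitor of matrix proteases, had 6.53 and 6.43 in the control kidneys and 6.06 and 6.27 after the mimic (log2 difference -0.32). The survival gene Bcl2 had 0.68 and 0.65 against 0.33 and 0.64, its relative Bcl2l11 0.09 and 0.17 against -0.12 on both arrays, and Atm -1.77 and -1.61 against -2.0 and -1.92. Mimic levels were lower on both arrays in these 4, picked by their values. On the other probe of Bcl2 the groups overlapped, with a difference of 0.02. They also overlapped on the other probes of Bcl2l11 (-0.02 and -0.37). Kpna4, the importin target, had 0.96 on both control arrays against 0.92 and 0.99. Among the 3 higher genes were S1pr1, a sphingosine phosphate receptor (-1.52 and -1.49 against -0.39 and -1.18), and Dusp5.

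The seed match itself could be searched only in the 60-base probes. The reverse complement of the seed, TGAATGT, was in the probe of 203 genes (0.908%). Their median mimic minus control difference was -0.03, against -0.04 for the 22165 genes without it, and 11 (5.42%) were lower at an unadjusted p under 0.05 in limma, against 5.9%. Of the 203, 2 were shared higher, Arhgef15 and Ms4a4c, both on repeat probes, and 0 were shared lower. The 1 reported target with the match in its probe was Dusp5, a MAP kinase phosphatase, shown with the match in capitals (probe at chr19:53616779-53616838, mm9).
Dusp5: gtaaacccatgTGAATGTgaagagaagcag
Dusp5 had levels of -2.52 and -2.59 in the control kidneys and -1.47 and -2.10 in the mimic kidneys, above control on both arrays. Sites elsewhere in the mRNAs were not analysed here.

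The machinery that processes and uses miRNAs differed little. Over 24 genes the medians were 0.09 and 0.03, with 2 higher and 0 lower at an unadjusted p under 0.05 in limma, against 3.42% and 5.89% of all genes. Ago2, the slicing Argonaute, had 1.79 and 1.72 against 2.12 and 1.88, Ago3 -1.96 and -2.12 against -1.75 and -1.63, and Dicer1 1.52 and 1.34 against 1.27 and 1.60. Xrn1, the other gene at that p, was read by a repeat probe. Nr6a1, the gene in whose locus Mir181b-2 lies, had -0.88 and -0.76 against -1.07 and -0.83.

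Most genes followed in diabetic kidney disease did not separate the groups. Lepr, the leptin receptor gene, had 2.36 and 2.11 in the control kidneys and 1.98 and 2.35 in the mimic kidneys. Nphs1, the nephrin gene of the slit diaphragm, had 0.20 and -0.13 against -0.30 and 0.25. The matrix genes Col1a1 (-0.73 and -1.97 against -0.64 and -2.07), Col4a1 (1.95 and 1.67 against 2.68 and 1.41) and Fn1 (1.10 and 0.77 against 1.85 and 0.34), and the cytokine gene Tgfb1 (-2.33 and -2.57 against -2.03 and -2.72), did not lie apart either. In the last 3, mimic replicate 1 lay above and mimic replicate 2 below control. Cdkn1a, the cell cycle inhibitor p21, was above control on both arrays, at 2.10 and -0.45 against -0.98 and -1.23, and Timp3 below. Havcr1, the KIM-1 gene, did not pass the filter on dim probes. Podocyte markers had medians of 0.42 and 0.12 over 13 genes, with 2 higher at an unadjusted p under 0.05 in limma, against 3.42% of all genes. Wt1, the podocyte transcription factor, had 1.21 and 1.09 against 1.57 and 1.40.

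Control replicate 1 differed from its own partner in markers of tissue around the kidney. Urothelium markers lay 2.10 and adipocyte markers 1.94 higher on it than on control replicate 2 (list medians), for example Upk1a at 1.78 and -0.32 and Adipoq at -1.45 and -6.14. After the mimic these genes had -1.24 and -0.74, and -4.80 and -5.04, and Adipoq was well above background on 1 array of each group. The log2 of the summed linear levels ranged from 3.27 to 3.66 over the 4 arrays for adipocyte markers and from 0.28 to 2.72 for urothelium markers. No shared gene outside the repeat set belongs to either list.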

How the data were processed

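Total kidney RNA was labelled with Cy3 and hybridised to 1-colour mouse arrays, 1 array per sample. The authors deposited scanner intensities from Agilent Feature Extraction 12.0.3.1, per the file headers already background-subtracted, and a series table of values as a linear ratio to each probe's median. From the deposited intensity of 59305 non-control spots, log2 was taken and each array's 75th percentile subtracted. Spots of a probe were averaged, 33639 probes well above background on both arrays of a group were kept, and the brightest probe stood for each of 22368 genes, of which 17037 were named in RefSeq. Between 56.5 and 62.5% of spots were well above background and 0 were saturated; the number of arrays limits the precision.

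limma 3.58.1 (R 4.3.3) was fitted to all 8 arrays with 1 mean per group, 4 residual degrees of freedom and Benjamini-Hochberg adjustment, and was tested on simulated data. Python 3.11.15, pandas 2.3.3, NumPy 2.4.6 and Matplotlib 3.10.9 were used for the rest. Alternatives were normexp, quantile scaling, the series table, the filter, the mean of probes, a replicate block, array weights, a robust prior and leaving out arrays. Named genes are the 8 with the smallest p in each direction, the 10 with the largest shared gap in each direction, the 6 with the largest gap on 1 mimic array in each direction, the leading members of each list and all kidney disease genes; other named genes were chosen after their values were seen. The comparison and the gene lists were chosen with earlier results of these data known. Probe coordinates are on mm9, per the file headers and probe annotation in the files. A few genes that meet these rules are counted but not reported by name.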

Additional observations from a re-analysis of the deposited data

How the results depend on the processing

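With 2 arrays a group, calls rest on which mimic array is kept: leaving out 1 array gave between 0 and 3087 genes past the threshold (113 without mimic replicate 1), and the other settings gave 0, with smallest adjusted p values from 0.0723 (normexp) to 0.708 (the 4 arrays alone) in limma. Replicate numbers gave no pairing (correlation of deviations 0.064 between control and mimic), and the fit with the replicate block also gave 0 calls. Shared higher genes numbered 73 with the mean of all probes, 16 without repeat probes, a setting chosen after seeing the data, 213 at 1.5-fold and 133 to 895 with 1 array left out. Shared lower genes numbered 26 with normexp, 67 with the series table, 17 without repeat probes, 192 at 1.5-fold and 95 to 718 with 1 array left out. Genes on mimic replicate 1 only numbered 1318 higher and 1811 lower at 1.5-fold and 256 lower with normexp. On mimic replicate 2 only there were 4 higher and 9 lower with normexp, 78 lower with the series table, 7 higher among probes above background on all 8 arrays, 136 higher and 223 lower at 1.5-fold, and 30 to 53 higher and 50 to 87 lower with 1 control array left out. The cause was not tested for these counts.

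Differences (log2) that took the other sign without repeat probes were Ccdc138 (-0.73), Zcchc9 (-0.076), Igsf9 (-0.22), 1700110I01Rik (-0.082), Lrig2 (0.29), Clasp2 (0.20) and Slc17a5 (0.020). For Ccdc138 and Igsf9 the probe without a repeat was well above background on only 3 and 2 of the 4 arrays, so the sign of these differences is not read. Kidney disease genes whose groups overlap or that rest on 1 mimic array also turned, and with each array left out in turn their differences ranged from -0.25 to 0.12 for Lepr, -0.34 to 0.22 for Nphs1, -0.72 to 0.71 for Col1a1, -0.40 to 0.87 for Col4a1, -0.60 to 0.92 for Fn1, -0.27 to 0.42 for Tgfb1, -0.36 to 5.86 for Lcn2 and -0.039 to 0.027 for Kpna4. With the mean of all probes Nphs1 was 0.092, Col1a1 0.38 and Tgfb1 -0.010. Col1a1 was 0.022 with normexp, 0.014 with quantile scaling and 0.012 with the series table, where Kpna4 was 0.0094. Of 674 values for 46 named genes, 591 kept their direction and side of the threshold.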
